A study of Mus musculus with 12 samples.

Results

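The genes described here encode 8 proteins that make microRNAs or carry out their silencing, namely *Dgcr8*, *Xpo5*, *Dicer1*, *Tarbp2*, *Prkra*, *Tnrc6a*, *Tnrc6b* and *Tnrc6c*. They were chosen by their roles, were found by symbol among the 21705 genes measured, and all 8 passed the filter on low values, a mean of at least 10 over the livers. Messenger RNA was sequenced from whole livers of female C57BL/6J mice aged 10 to 12 weeks that were killed 7 days after a tail vein injection and an 18 h fast. The saline group (n = 6) received no oligonucleotide, and the LNA29 group (n = 6) received LNA29a and LNA29bc at 20 mg/kg each. These are locked nucleic acid inhibitors, short modified oligonucleotides that bind the miR-29 family, and they were given through the blood, not to the liver alone. No control oligonucleotide was sequenced, so inhibition of miR-29 and the mere presence of such an oligonucleotide cannot be told apart.

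A microRNA begins as a hairpin in a long nuclear transcript. DGCR8 holds that hairpin for the nuclease DROSHA, which cuts it out, and exportin 5, the product of *Xpo5*, carries it into the cytoplasm. There DICER1 trims it to a short duplex with the help of its double-stranded RNA-binding partners TARBP2 and PRKRA, also known as TRBP and PACT. One strand is kept by an Argonaute protein, and the TNRC6 (GW182) proteins bound to Argonaute recruit the deadenylases that shorten the tail of the target mRNA. In liver this pathway matures the microRNAs that hepatocytes hold in abundance.

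The inhibited microRNAs are shown first because their seed gives the bases that were searched for. In RefSeq (GRCm38.p6) the mature forms share 1 seed, bases 2 to 8 counted from the 5′ end, given in capitals.
mmu-miR-29a-3p: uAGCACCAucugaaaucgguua
mmu-miR-29b-3p: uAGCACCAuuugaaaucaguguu
mmu-miR-29c-3p: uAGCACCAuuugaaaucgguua
The rows of their hairpin genes, *Mir29a*, *Mir29b-1*, *Mir29b-2* and *Mir29c*, held no read in any of the 12 libraries, so these libraries of polyadenylated RNA gave no measure of miR-29 itself.

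The complement of the seed, TGGTGCT, was searched for on the mRNA strand, in the longest 3′ UTR that GENCODE M21 gives a gene (GRCm38, a later build than the mm9 named in the submitters' processing notes). It occurred once each in *Dicer1*, *Xpo5* and *Prkra* and nowhere in the UTRs of the other 5 genes, including that of *Tnrc6b*, which is 11609 bases long. Of all 20389 genes with a UTR, 13.3% held a match, and 2.91% held the longer form that adds an A, TGGTGCTA, which contains the shorter one. *Dicer1* held the longer form. The matches are printed 5′ to 3′ on the mRNA strand, with the seed match in capitals.
Dicer1: cctttgcctgcattttcccgtTGGTGCTa
Xpo5: caaggccgtcctcctcctgccTGGTGCTt
Prkra: aaagagataaaacagccttacTGGTGCTg
In *Dicer1*, on the minus strand, the capitals lie at chr12:104690392-104690398 in the 3′ UTR part of exon 27 of 27. The match in *Xpo5* lies on the plus strand at chr17:46243368-46243374, in the UTR part of exon 32 of 32. That in *Prkra* lies on the minus strand at chr2:76630092-76630098, in the UTR part of exon 8 of 8. A match is a description of the letters and was not tested for function. Only the shorter and the longer form given above were searched for, and other kinds of match were not counted.

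The deposited values were RSEM gene estimates scaled so that the upper quartile of a library was 1000 (998.3 in saline replicate 49), and dividing a value by the smallest step of its library gave an estimate of the reads behind it. The libraries held between 7696095 and 19062479 reads on genes, and 1 read was worth between 9.804 and 24.39 units. Median depth was lower in the LNA29 group, at 9123470 reads against 12011973 in the saline group. In LNA29 livers 1 read was worth 12.5 to 24.39 units, and in saline livers 9.804 to 17.54. A mean of 10, the filter on low values, was thus near or under the worth of 1 read. Whether depth shaped the values of genes with few reads was not tested. All 6 hepatocyte markers were measured, and albumin alone took between 43.6% and 46.9% of the reads in 11 livers. In saline replicate 49 it took 35.7%, and that library also stood apart in its trend with transcript length, described below. The summed value of the 6 hepatocyte markers ran from 34246100 to 115790842.1 in saline and from 88040482.1 to 104970287.5 in LNA29 livers. Its lowest value was that of saline replicate 49. As a check of the treatment, 6 matrix genes were used, of which *Sparc*, *Eln* and *Col3a1*, known targets of miR-29, passed the threshold. *Sparc* rose by 1.51 on the log2 scale in the LNA29 livers (SE 0.14, limma adjusted p = 4.62e-05), *Eln* by 1.94 (SE 0.30, adjusted p = 0.0224) and *Col3a1* by 1.48 (SE 0.28, adjusted p = 0.0438), with no overlap between the groups. With each liver left out in turn, *Sparc* passed the threshold in 12 of 12 fits, *Eln* in 8 (adjusted p from 0.00421 to 0.0784) and *Col3a1* in 2 (0.0288 to 0.126). *Eln* lost its call without saline replicates 43 or 51 or LNA29 replicates 50 or 54, and *Col3a1* without any single liver other than saline replicate 45 or LNA29 replicate 46. The groups overlapped for *Col1a1*, at 0.70 (SE 0.37, adjusted p = 0.688), *Col1a2*, at 0.62 (SE 0.25, adjusted p = 0.513), and *Fbn1*, at 1.52 (SE 0.50, adjusted p = 0.342).

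For none of the 8 machinery genes could a difference between saline and LNA29 livers be told from the variation between livers by the tests used. Of the 8, 0 passed the threshold of an adjusted p of 0.05 (limma on log2(value + 1), two-sided, Benjamini-Hochberg over all tested genes), where 20 of 12486 tested genes, or 0.16%, did. At an unadjusted p under 0.05 the count was again 0 of 8, beside 988 or 7.91% of all tested genes. The groups overlapped for all 8, whereas 0.985% of tested genes had groups that did not overlap. An exact permutation test over the 924 divisions of the livers, two-sided, also gave 0 of 8 under 0.05. The share of all tested genes under 0.05 by this test was not counted. The LNA29 mean on the log2 scale was the lower for 7 of the 8, and for 61.4% of all tested genes, with a median log2 fold change of -0.15 for the 8 and -0.09 for all tested genes. *Prkra* was the exception, with a higher mean.

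**Figure D1:**
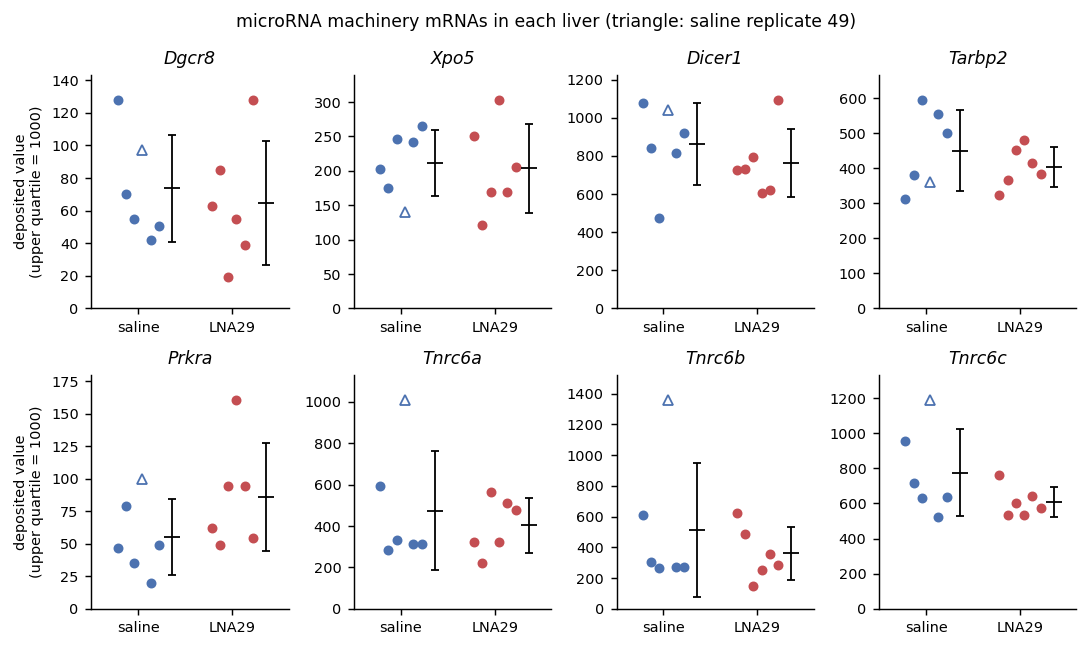
Deposited value (linear axis, upper quartile of a library = 1000) of each machinery gene in the 6 saline (blue) and 6 LNA29 (red) livers, with the mean and SD of each group in black beside the points. The groups overlap in all 8 panels, and the open triangle, saline replicate 49, is the highest saline liver for *Prkra* and for *Tnrc6a*, *Tnrc6b* and *Tnrc6c*.

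*Dgcr8*, which encodes the hairpin-binding partner of DROSHA, was the most weakly measured with *Prkra*. Its value ran from 42.0 through a median of 62.4 to 127.8 in the saline livers and from 19.2 through 58.9 to 128.1 in the LNA29 livers. Only 3 to 10 reads stood behind each saline value and 1 to 9 behind each LNA29 value, and each group spanned most of the range of the other. On the log2 scale *Dgcr8* differed by -0.30 (SE 0.48, 95% interval -1.31 to 0.72, adjusted p = 0.93, exact permutation p = 0.539), so that neither a fall to 0.402-fold nor a rise to 1.65-fold lay outside the interval. Leaving out 1 liver moved it between -0.54, without LNA29 replicate 54, and -0.002, without LNA29 replicate 48, the liver with 1 read.

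The estimate for *Dgcr8* was also shared with a neighbour. Its exons overlap those of *Trmt2a*, a tRNA methyltransferase gene on the opposite strand, over 825 bases. In 0 of 12 livers did *Dgcr8* hold a whole number of reads (within 0.02), but the reads of *Dgcr8* and *Trmt2a* added up to a whole number in all 12, such as 8.18 and 19.82 to 28 in saline replicate 43. The other 7 machinery genes held whole reads in all 12 livers. Whether strand was used in counting is not given in the sources used here. Without strand, reads from the overlap cannot be told apart, and the *Dgcr8* values are uncertain. *Trmt2a* itself differed by 0.08 (SE 0.24, adjusted p = 0.971).

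*Drosha*, the nuclease that DGCR8 serves, ran from 320.0 through 354 to 578 in saline livers and from 214 through 359 to 377 in LNA29 livers. Apart from 1 high saline and 1 low LNA29 liver, the values of both groups lay between 317 and 377. Its log2 fold change was -0.19 (SE 0.22, interval -0.66 to 0.27, adjusted p = 0.89, exact permutation p = 0.433). The ratio of *Dgcr8* to *Drosha* within a liver was lower by 0.10 on the log2 scale in the LNA29 group (exact permutation p = 0.844, adjusted over 6 ratios 0.939).

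*Xpo5*, which encodes the export receptor for hairpins, ran from 140.0 through 223 to 265 in the saline livers and from 122 through 188 to 304 in the LNA29 livers. The lowest and the highest of the 12 values were both from LNA29 livers. Its log2 fold change of -0.085 (SE 0.28, interval -0.67 to 0.50, adjusted p = 0.974, exact permutation p = 0.734) was the smallest of the 8, from 5 to 27 reads a liver. Without LNA29 replicate 46, the lowest, it was 0.05.

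*Dicer1* had the highest mean value of the 8 as deposited. It ran from 474 through 881 to 1078 in the saline livers, a mean of 862 ± 217 (SD, n = 6), and from 607 through 728 to 1096 in the LNA29 livers, a mean of 762 ± 178 (SD, n = 6). The saline group held the lowest of all 12 values, in replicate 47, and the LNA29 group the highest, in replicate 54. From 27 to 104 reads a liver, the log2 fold change was -0.16 (SE 0.21, interval -0.60 to 0.29, adjusted p = 0.917, exact permutation p = 0.485).

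The *Dicer1* result depended on those livers. With values beyond 1.5 SD of their group mean left out, as in a second analysis of the study, saline replicate 47 and LNA29 replicate 54 were dropped for this gene. The remaining 5 saline values, from 818 up, lay above the remaining 5 LNA29 values, which reached 792. The difference was then -0.43 on the log2 scale (SE 0.13, limma adjusted p = 0.123, exact permutation p = 0.00794, the smallest that 5 against 5 can give). The values dropped were the lowest of the higher group and the highest of the lower one, and without saline replicate 47 alone the log2 fold change was -0.32. Dropping values by their distance from their own group mean narrows the spread within groups. The p-values after dropping can therefore not be taken at face value. The adjusted p ran from 0.123 to 0.979 over all settings.

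*Tarbp2*, the gene of the Dicer partner TRBP, ran from 312 through 440.5 to 596 in the saline livers and from 325 through 399 to 482 in the LNA29 livers. All 6 LNA29 values lay within the saline range. On the log2 scale the difference was -0.13 (SE 0.21, interval -0.57 to 0.31, adjusted p = 0.93, exact permutation p = 0.476), from 15 to 55 reads a liver. Of the windows of 100 bases, the read length, in its longest transcript, 36.7% also occur in *Gm18584*, although its reads were whole numbers in all livers.

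*Prkra*, the gene of the other Dicer partner, PACT, was the gene with the higher mean in LNA29 livers. It ran from 20.2 through 47.9 to 100 in the saline livers and from 48.8 through 78.4 to 160.7 in the LNA29 livers. In the saline group 3 livers lay at 46.9 or lower, under every LNA29 liver, while the others overlapped them. *Prkra* differed by 0.69 on the log2 scale (SE 0.47, interval -0.29 to 1.67, adjusted p = 0.787, exact permutation p = 0.134), the largest of the 8 in size, but on 2 to 10 reads a liver. Without saline replicate 49 it was 0.89 (adjusted p = 0.70, exact permutation p = 0.0519), and without saline replicate 51, the lowest, it was 0.44 (adjusted p = 0.907, exact permutation p = 0.268).

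The balance of the Dicer partners was compared within each liver. The log2 ratio of *Prkra* to *Tarbp2* averaged -3.15 ± 1.10 (SD, n = 6) in the saline livers and -2.33 ± 0.47 (SD, n = 6) in the LNA29 livers, a difference of 0.82 (exact permutation p = 0.13, adjusted over 6 ratios 0.779). This difference was 0.50 without saline replicate 51 and 1.08 without saline replicate 49. For *Dicer1* to *Tarbp2* the difference was -0.03 (adjusted 0.939).

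The 3 GW182 genes, which encode the scaffolds that link Argonaute to the deadenylases, shared 1 high saline liver. *Tnrc6a* ran from 286 through 323 to 1010.0 in the saline livers and from 219.5 through 402 to 566 in the LNA29 livers. Apart from saline replicates 49 and 43, at 1010.0 and 594, its saline values lay between 286 and 333. The log2 fold change was -0.14 (SE 0.32, interval -0.81 to 0.54, adjusted p = 0.958, exact permutation p = 0.716) and turned to 0.115 without saline replicate 49.

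*Tnrc6b* ran from 263 through 288 to 1360.0 in the saline livers and from 151 through 323 to 625 in the LNA29 livers. Saline replicates 49 and 43, at 1360.0 and 609, and LNA29 replicate 44, at 625, stood above the rest. Its log2 fold change was -0.34 (SE 0.41, interval -1.20 to 0.52, adjusted p = 0.897, exact permutation p = 0.526), and the saline median was nevertheless the lower of the medians. Without saline replicate 49 the log2 fold change was 0.002 (exact permutation p = 0.994), so the lower LNA29 mean rested on that liver.

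*Tnrc6c* ran from 525 through 676 to 1190.0 in the saline livers and from 536 through 590 to 762 in the LNA29 livers. The highest 2 values were saline replicates 49 and 43, and the lowest was also a saline liver. *Tnrc6c* differed on the log2 scale by -0.30 (SE 0.20, interval -0.73 to 0.13, adjusted p = 0.785, exact permutation p = 0.167), from 22 to 119 reads a liver, and it was -0.17 without saline replicate 49. Its adjusted p was the lowest of the 8.

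Ratios between the 3 GW182 mRNAs differed between the groups by less than the spread between livers. The within-liver log2 ratio of *Tnrc6b* to *Tnrc6a* was lower by 0.20 in the LNA29 group (exact permutation p = 0.69), that of *Tnrc6c* to *Tnrc6a* by 0.16 (p = 0.517 by the same test), and that of *Tnrc6c* to *Tnrc6b* differed by 0.04 (permutation p = 0.905). Each had an adjusted value of 0.939 over the 6 ratios. In saline replicate 49 all 3 genes had their highest value.

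**Figure D2:**
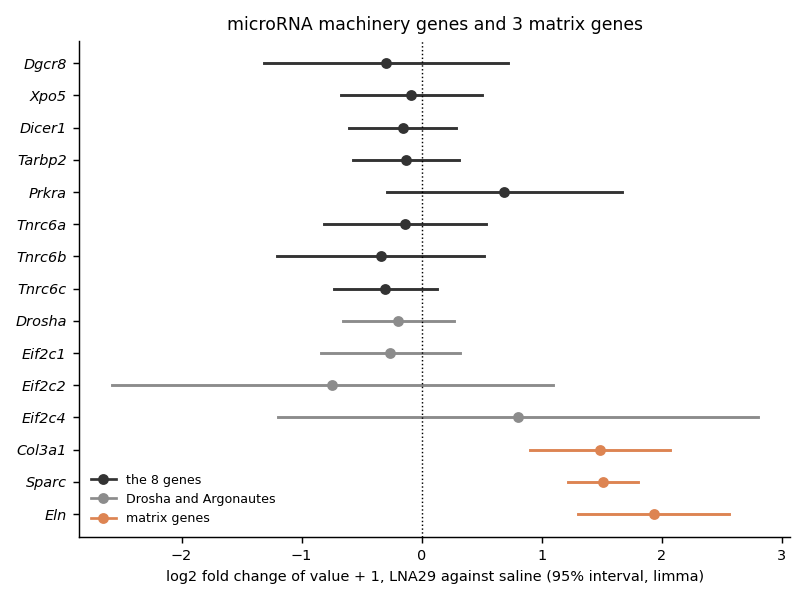
Log2 fold change of value + 1, LNA29 against saline, with its 95% limma interval, for the 8 machinery genes (black), *Drosha* and the Argonaute genes tested (grey) and 3 matrix genes (orange). Every interval of a machinery gene crosses 0, whereas those of *Col3a1*, *Sparc* and *Eln* lie above it. Of the 6 matrix genes of the check, these 3 are the ones past the adjusted threshold. Not drawn are *Col1a1*, whose interval (-0.075 to 1.483) crosses 0, and *Col1a2* and *Fbn1*, whose intervals lie above 0.

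The livers that were high for the GW182 genes also stood apart in a trend with transcript length. For each library the deviation of every gene from its mean over the livers was correlated across 12217 genes with transcript length (Spearman rho). The trend ran from -0.295 to 0.496 in the saline group and from -0.245 to 0.257 in the LNA29 group, with group means of 0.0147 and -0.00585. It was highest in saline replicate 49, at 0.496, followed by saline replicate 43, at 0.276, and LNA29 replicate 44. A high value means that long transcripts read higher in that library than in the others. Because the trend was built from these same libraries, long and short transcripts tend to follow it by construction. The share of all genes, or of genes of like length, that follow it was not counted. The p-values of single genes below therefore do not set the machinery genes apart.

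*Tnrc6b*, with the longest transcript of the 8 at 17332 bases, followed that trend over the 12 livers with Pearson's r = 0.90 (permutation p = 0.00017, adjusted over 9 relations 0.00153) and Spearman's rho = 0.804 (permutation p = 0.00241, adjusted 0.00726). The relation was 0.961 within the saline and 0.828 within the LNA29 livers, and 0.755 without saline replicates 43 and 49, the libraries farthest from the median. *Tarbp2*, with the shortest transcript at 1523 bases, ran against it, with r = -0.80 (permutation p = 0.00168, adjusted 0.00756) and rho = -0.867 (permutation p = 0.00044, adjusted 0.00396). Its r was -0.846 within saline, -0.792 within LNA29 and -0.836 without those libraries.

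For *Dgcr8*, r was 0.687 (permutation p = 0.0131, adjusted 0.0296), rho was 0.804 (permutation p = 0.00242, adjusted 0.00726), and r was 0.593 without the 2 libraries, 0.84 within saline and 0.716 within LNA29. These values of *Dgcr8* rest on few reads and on an estimate shared with *Trmt2a*, as given above. *Tnrc6c* gave r = 0.757 (permutation p = 0.00536, adjusted 0.0161) but rho = 0.469 (permutation p = 0.129, adjusted 0.193). Its r was 0.245 without saline replicates 43 and 49 and 0.399 within LNA29, so the relation of *Tnrc6c* rests on those libraries. Neither coefficient passed for *Dicer1*, *Xpo5*, *Prkra* and *Tnrc6a*, whose r ran from -0.322 to 0.539. Transcript length thus did not order all of the genes. *Dicer1* (9851 bases) and *Tnrc6a* (8183 bases) have long transcripts, and *Prkra* (1614 bases, r = 0.235) has one nearly as short as that of *Tarbp2*. For *Tnrc6a*, r was 0.483 over all livers, but -0.599 within LNA29 and -0.283 without saline replicates 43 and 49. *Drosha* gave r = -0.35 (permutation p = 0.259) and rho = -0.655 (adjusted permutation p = 0.0535). With the trend as a covariate in limma, 124 of the 12486 tested genes passed the threshold, so the count of 0 of the 8 is near the background. The log2 fold change of *Tnrc6b* was then -0.28 (SE 0.22, adjusted p = 0.655), that of *Tnrc6c* -0.28 (SE 0.15, adjusted p = 0.476) and that of *Tarbp2* -0.15 (SE 0.16, adjusted p = 0.765). What gave the libraries their trend was not tested.

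**Figure D3:**
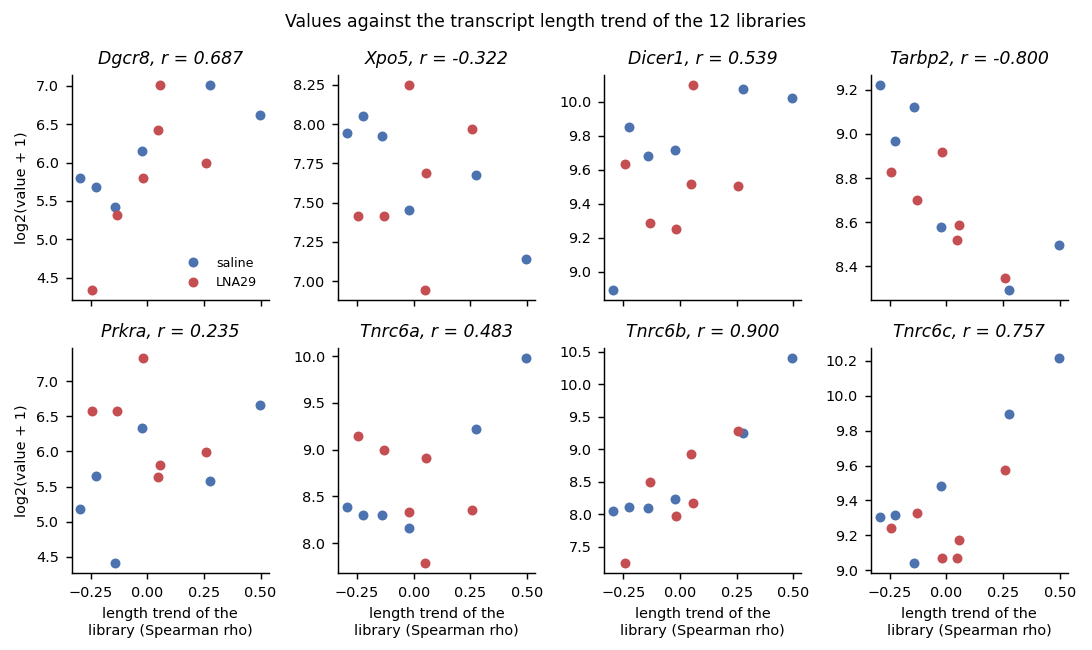
Log2(value + 1) of each machinery gene against the transcript length trend of the library (Spearman rho), with 1 point for each saline (blue) and LNA29 (red) liver. *Tnrc6b* climbs with the trend (r = 0.90) and *Tarbp2* falls with it (r = -0.80) in both groups.

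Divided by the length of the longest transcript, *Tarbp2* stood highest in the saline livers, at 296 ± 76 value units per kb (SD, n = 6). Then came *Tnrc6c* at 87.6 ± 28.1, *Dicer1* at 87.5 ± 22, *Tnrc6a* at 58.0 ± 34.9, *Xpo5* at 41.7 ± 9.44, *Prkra* at 34.1 ± 18.2, *Tnrc6b* at 29.6 ± 25.1 and *Dgcr8* at 17.1 ± 7.61 per kb. *Tarbp2* exceeded *Tnrc6c*, the next in order, in 6 of 6 saline livers, by 1.77 ± 0.78 on the log2 scale (SD), and *Tnrc6b* exceeded *Dgcr8* in 6 of 6, by 0.59 ± 0.63. For both, the exact sign-flip p was 0.0312, the smallest that 6 livers allow, and the value adjusted over 7 neighbour pairs was 0.109. With 6 livers, a pair could pass the adjusted threshold only if most of the 7 pairs reached that smallest p. The test separated no neighbours, and it could not have done so for only a few of them. The middle of the order depended on the length used. With the mean length of the transcripts of a gene, *Dicer1* came 2nd at 152 per kb, *Tnrc6a* 3rd at 134 and *Tnrc6c* 4th at 96.2, while *Tarbp2* stayed highest and *Dgcr8* lowest.

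**Figure D4:**
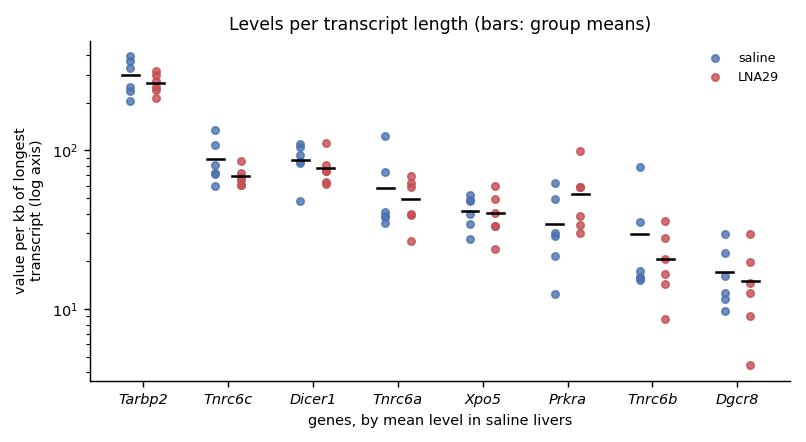
Value per kb of the longest transcript (log axis) for each machinery gene in the saline (blue) and LNA29 (red) livers, with 1 point for each liver and a black bar at the group mean. *Tarbp2* is highest, at means of 296 in saline and 265 in LNA29 livers, and *Dgcr8* lowest, at 17.1 and 15.

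The Argonautes, which hold the microRNA and are listed under their older symbols, were measured unevenly. *Eif2c1* (*Ago1*) ran from 313 through 349 to 641 in saline livers and from 195 through 327 to 600.0 in LNA29 livers, with a log2 fold change of -0.26 (SE 0.28, adjusted p = 0.878). *Eif2c2* (*Ago2*), the Argonaute that can cut its target, held at most 16 reads in a liver and differed by -0.74 (SE 0.87, adjusted p = 0.894), or by 0.05 without LNA29 replicate 48, which held none. *Eif2c4* (*Ago4*) held at most 6 reads (0.81, SE 0.95, adjusted p = 0.895), although its mean value was the lower in the LNA29 livers on the linear scale, 35.9 against 38.1. *Eif2c3* (*Ago3*) held at most 2 reads in any liver, was under the filter, and gets no fold change. The 95% intervals spanned 0.167- to 2.13-fold for *Eif2c2* and 0.437- to 6.98-fold for *Eif2c4*.

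The rest of the pathway was covered by 91 listed genes, of which 89 were in the table and 85 were tested. Of the 85, 0 passed the adjusted threshold, beside 0.16% of all tested genes, and 0 had groups without overlap, beside 0.985%, so counts of 0 are near the background. The LNA29 mean was the higher for 46 and the lower for 39, where 61.4% of all tested genes had the lower mean. Their median log2 fold change was 0.02. At an unadjusted p under 0.05, 2 of the 85 were called, beside 7.91% of all tested genes. These were *Hsp90ab1*, a chaperone that helps to load Argonaute (0.32, SE 0.14, adjusted p = 0.608, exact permutation p = 0.00866), and *Papd4*, a poly(A) polymerase that adds adenosines to microRNA ends (-0.85, SE 0.33, adjusted p = 0.488, exact permutation p = 0.0152). *Papd4* ran from 90.9 through 161 to 230.0 in saline livers and from 56.6 through 91.7 to 113 in LNA29 livers. Its 3 to 23 reads a liver left the groups overlapping.

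By role, 0 of 19 nuclear processing genes, 0 of 10 Argonautes and loading chaperones, 0 of 12 silencing cofactors, 0 of 17 deadenylation genes, 0 of 18 decapping and decay genes and 0 of 9 tailing and turnover genes passed the adjusted threshold. In each list the gene with the largest change among those with a mean of at least 100 was described. The RNA-editing enzyme *Adar* differed by -0.37 (SE 0.19, adjusted p = 0.683, exact permutation p = 0.0173), the co-chaperone *Fkbp5* by 0.36 (SE 0.26, adjusted p = 0.797) and the importin *Ipo8* by -0.57 (SE 0.36, adjusted p = 0.762). *Btg2*, whose product binds the CCR4-NOT deadenylase, differed by 1.01 (SE 0.49, adjusted p = 0.634), with values from 87.7 to 951 in saline and from 293 to 1425 in LNA29 livers. The decapping gene *Dcp1b* differed by 0.53 (SE 0.88, adjusted p = 0.931), but by -0.46 without saline replicate 47, which held none of its reads, and its linear mean was the lower in LNA29 livers, 99.9 against 107.6. *Papd4*, above, was the gene of the tailing list.

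Seed matches were also set beside the values. Of the 3 machinery genes with a match, *Prkra* had the higher LNA29 mean and *Dicer1* and *Xpo5* the lower one. Over all tested genes, 45.0% of the 1876 with a match had the higher mean, with a median log2 fold change of -0.04, against 37.2% of the 10249 without, with a median of -0.10. Of the 399 with the longer form, which *Dicer1* also holds, 53.1% were higher, with a median of 0.02. These are descriptions, and no difference between the sets was tested.

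The genes whose values most resembled those of *Dicer1* over the 12 livers were found among 4865 others with a mean of at least 500. They were *Pgm2*, with Pearson's r = 0.943 of log2(value + 1), *Ttc17* at 0.893 and *Tmem38b* at 0.861. The livers share their scaling and their length trend across all genes, and these 3 were picked as the highest correlations.

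The summed levels of markers of other liver cells overlapped between the groups. The summed value of 7 stellate cell markers ran from 2172 to 3000.0 in saline and from 1610 to 2585 in LNA29 livers, that of 6 endothelial markers from 5302 to 5883 and from 4446 to 5596, and that of 6 Kupffer cell markers from 7188 to 10569 and from 6018 to 14877. The sums ran from 604 to 906 and from 440.0 to 1169.8 for 6 bile duct markers, from 271 to 785 and from 175 to 756 for 6 lymphocyte markers, and from 2158 to 6338 and from 2656 to 17732 for 2 erythroid markers. The LNA29 mean was the higher for 1 of 7 stellate, 1 of 6 endothelial and 1 of 6 Kupffer cell markers, for 1 of 5 lymphocyte markers tested, for 4 of 6 bile duct and 4 of 6 hepatocyte markers, and for both erythroid markers. None of these markers passed the adjusted threshold, and their part in the values of the machinery genes was not tested. In whole liver, fewer cells of a type and less RNA per cell cannot be told apart.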

How the data were processed

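Livers of 6 saline and 6 LNA29 mice were analysed. The authors sequenced polyadenylated RNA as single reads of 100 bases (HiSeq 2000), used MapSplice2 for mapping and RSEM for gene estimates, and deposited 1 signal value per gene and liver, with the upper quartile of genes with reads at 1000 (998.3 in saline replicate 49) and genes without reads at 1. Versions are not given in the sources used here. The deposited table also holds the authors' group means, a fold change (a signed score) and a p-value, none used here, and 2 unnamed columns not used here. The machinery genes and lists were chosen with earlier results of these data known.

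Genes averaging at least 10 (12486) were fitted as log2(value + 1) in limma 3.58.1 (R 4.3.3) with a trend, over all 12 livers without covariates, and p-values were adjusted by Benjamini-Hochberg, with 0.05 as threshold. Single genes and ratios were tested by exact permutation, and the 9 relations with the length trend by 100000 permutations (Python 3.11.15, numpy 2.4.6, scipy 1.17.1, pandas 2.3.3). The steps were tested on simulated data. Between 92.0% and 93.6% of values were whole multiples of a step (within 0.02), taken as 1 read, which was too few to use the values as counts. Named were the 8 genes, *Drosha*, the Argonautes, genes of the lists past the threshold or without overlap, the largest change in each list among means of at least 100, 6 matrix genes, and the 3 genes most like the machinery gene of highest mean. *Hsp90ab1* and *Trmt2a* were named after their values were seen. Alternatives were pseudocounts of 0.1 and 10, no filter or a mean of at least 100, a common median, values beyond 1.5 SD left out, the length trend as covariate, mean transcript length, any 3′ UTR and leaving out each liver.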

Additional observations from a re-analysis of the deposited data

Results flagged for a closer look

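In 3 of 36 groups of 6 livers, 1 liver stood apart by Dixon's criterion, in which the gap to the nearest liver divided by the range exceeds 0.625. Chance alone would give about 1.8 of 36. For *Dicer1* the lowest saline liver, replicate 47, had a ratio of 0.664, and it is one of the livers on which the result with values beyond 1.5 SD left out turned. For *Drosha* the highest saline liver, replicate 53, had a ratio of 0.762, and the lowest LNA29 liver, replicate 50, a ratio of 0.692.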

How the results depend on the processing

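No machinery gene and no other pathway gene passed the adjusted threshold in limma under any alternative in which it was fitted. With a mean of at least 100 required, *Dgcr8* and *Prkra* were not fitted, nor were pathway genes under that mean. By exact permutation 1 machinery gene, *Dicer1*, had a p under 0.05 with values beyond 1.5 SD left out. Those values were dropped by group before the test, so that p cannot be taken at face value. How many of all genes pass that permutation test was not counted, so this count has no background beside it. The number of all genes past the threshold moved from 20 to 10 with a common median, to 217 with values beyond 1.5 SD left out, to 124 with the length trend as covariate, and to between 1 and 29 when a liver was left out. It was 1 without saline replicate 43 and without LNA29 replicates 50 and 54, 3 without saline 51, 7 without saline 53, 9 without LNA29 46, 10 without LNA29 52 and 11 without saline 47. The cause was not tested. With values beyond 1.5 SD left out, the log2 fold change of *Tnrc6a* turned to 0.115, that of *Drosha* to 0.053 and that of *Dcp1b* to -0.281, the difference in the ratio of *Tnrc6c* to *Tnrc6b* to -0.389 and that of *Dgcr8* to *Drosha* to 0.232. Leaving out 1 liver turned the sign within these ranges: *Tnrc6a* from -0.249 to 0.115, *Tnrc6b* from -0.529 to 0.002, *Xpo5* from -0.212 to 0.05, *Dcp1b* from -0.455 to 0.862, *Trmt2a* from -0.038 to 0.238, *Eif2c2* from -1.172 to 0.05, and the ratios of *Tnrc6b* to *Tnrc6a* from -0.481 to 0.129, *Tnrc6c* to *Tnrc6b* from -0.18 to 0.191, *Dicer1* to *Tarbp2* from -0.28 to 0.143 and *Dgcr8* to *Drosha* from -0.319 to 0.232. A common median moved the median log2 fold change of all genes from -0.093 to -0.048.

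No paired analysis was made, because no label links a saline liver to an LNA29 liver or names a batch. The replicate numbers are odd in the saline and even in the LNA29 group, and what that order means is not given. The count-based tests and the TMM scaling planned were not run, because too few of the values were whole multiples of a read for the table to be taken as counts. Depth limits *Prkra*, *Dgcr8* and 3 Argonautes, which had at most 16 reads in a liver.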
